A study of Mus musculus with 12 samples.

Results

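The NF-kappa B subunits, their inhibitors and a set of their classical feedback targets were followed in mouse female germline stem cells (FGSCs) in which *Stella* (*Dppa3*) had been deleted or overexpressed. The 10 genes were taken by symbol and found in the count table through the RefSeq accessions of their transcripts: the ligands *Ltb* and *Tnf*, the subunits *Nfkb1*, *Nfkb2* and *Relb*, the inhibitors *Nfkbia*, *Nfkbie*, *Nfkbiz* and *Tnfaip3*, and the survival factor *Birc3*. All 10 had rows in the table. They made up 18 of 41388 listed transcripts and 10 of 24809 genes with a symbol.

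NF-kappa B is a family of dimeric transcription factors that are held in the cytoplasm by inhibitory proteins. Signals from receptors of the tumor necrosis factor, interleukin-1 and Toll-like families lead to the phosphorylation and breakdown of the inhibitors, after which the dimers enter the nucleus. Many of the genes then switched on encode inhibitors of the pathway, so that *Nfkbia*, *Nfkbie* and *Tnfaip3* serve both as targets and as brakes. *Ltb* encodes the membrane-anchored subunit of the lymphotoxin heterotrimer, which signals to the alternative branch of the pathway, and *Nfkb2* and *Relb* encode the subunits of that branch.

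RNA-seq was carried out on 12 libraries in 4 groups of 3. All were FGSCs of C57BL/6 mice at a passage number over 20, isolated with antibody to MVH and grown on mitotically inactivated STO feeder cells. The knockout group (KO) was 1 homozygous clone made with CRISPR/Cas9 and lentiviral guide RNAs, and its control (KO-con) is labelled only as the control of the knockout. The overexpressing group (Over) carried a *Stella* lentivirus under puromycin selection, and its control (Over-con) carried the empty lentiviral vector. Whether the 3 repeats of a group were separate cultures is not stated, so the p-values measure the spread between these libraries, which may be technical. The comparison of each line with its control asks whether the NF-kappa B genes differed between a line changed in *Stella* and its control. As KO was 1 clone, the knockout and traits of that clone cannot be told apart.

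The libraries held 5611846 to 12866545 counts each (median 10221419). Levels are given as CPM, that is a transcript's counts divided by its library's total over the transcripts that passed the filter, in units of 1000000 counts, scaled with TMM factors over the 12 libraries. On this scale 3 counts corresponded to between 0.230 and 0.529 CPM. Such floors cover counting error only. *Dppa3* had 0 counts in both groups of the knockout experiment and in Over-con, and 30.4 ± 1.86 CPM (SD, n = 3) in Over. The overexpression was thus visible in these counts. The deletion could not be checked with them, as KO-con had no *Dppa3* counts to lose.

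The labelled cell type was compared with lists of marker genes. Of 14 germ cell markers, 3 reached a mean of 1 CPM, namely *Ifitm3*, *Sycp3* and, through the Over group, *Dppa3*. *Ddx4*, which encodes MVH, was listed at 0 in all 12 libraries, and *Dazl* and *Pou5f1* did not exceed 0.104 CPM in any library. Each of these 3 genes has 2 listed transcripts, and genes with several listed transcripts were little counted throughout the table. Germ cell markers with 1 listed transcript were also low: *Figla* was listed at 0, *Stra8* and *Zp3* did not exceed 0.107 and 0.115 CPM in any library, and *Prdm1* had group means of 0.313 to 1.85 CPM. Of 12 fibroblast markers, 8 reached a mean of 1 CPM, and the sums were 2965 to 3461 CPM, led by *Vim*. *Pdgfrb* and *Sparc* were listed at 0, and *Lum* and *Postn* did not exceed 0.185 and 0.103 CPM in any library. Whether feeder cells were removed before RNA extraction is not stated. In bulk RNA, fewer cells of a type and less RNA per cell cannot be told apart.

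How a gene was listed went along with how many counts it received. Of the 10 genes, 4 have 1 listed transcript: *Ltb*, *Nfkb1*, *Nfkbia* and *Birc3*. Their mean levels ranged from 7.35 to 535.8 CPM. The other 6 have 2 or 3 listed transcripts, and their highest mean level was 0.648 CPM. Over the whole table, 31.52% of 16934 genes with 1 listed transcript reached a mean of 10 CPM, against 6.12% of 7875 genes with 2 or more. The same held for 96 other genes of the NF-kappa B pathway, of which 35 of the 53 with 1 transcript and 2 of the 43 with more reached 10 CPM. A near absence of counts for a gene with several transcripts therefore cannot be read as a near absence of its mRNA.

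**Figure D1:**
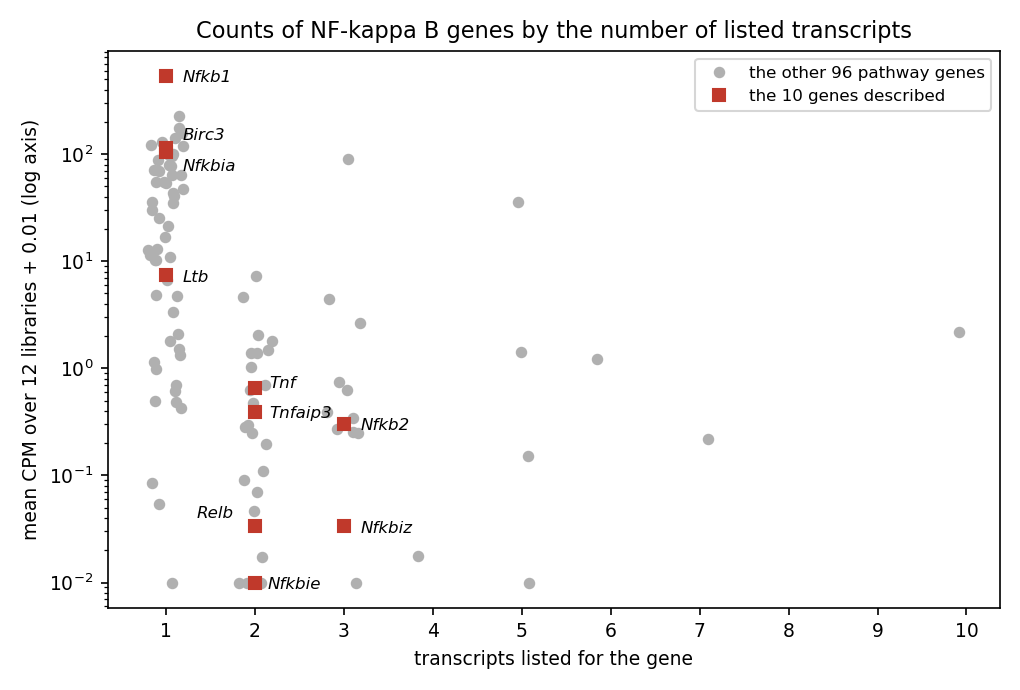
Mean CPM over the 12 libraries plus 0.01 (log axis) against the number of transcripts listed for each gene, for the 10 NF-kappa B genes (red squares) and 96 other pathway genes (grey points, spread sideways for legibility). The 4 genes with 1 listed transcript lie between 7.35 and 535.8 CPM, and the 6 genes with 2 or 3 lie at or below 0.648 CPM.

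The 3 genes that differed in the knockout, *Ltb*, *Nfkbia* and *Birc3*, are shown by the 150 bases upstream of their start sites. Promoters are among the sites where NF-kappa B dimers act, and sites further away were not searched. The sequences and positions are those of RefSeq on GRCm38.p6, read 5′ to 3′ on the strand of the gene. Capitals mark matches to the 10-base kappa B consensus, which opens with GGG and closes with CC, searched on both strands. A match on the strand opposite to the gene appears as its reverse complement.
Ltb: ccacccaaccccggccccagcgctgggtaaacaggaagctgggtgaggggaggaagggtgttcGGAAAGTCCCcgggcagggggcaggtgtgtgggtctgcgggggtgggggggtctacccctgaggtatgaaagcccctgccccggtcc
Nfkbia: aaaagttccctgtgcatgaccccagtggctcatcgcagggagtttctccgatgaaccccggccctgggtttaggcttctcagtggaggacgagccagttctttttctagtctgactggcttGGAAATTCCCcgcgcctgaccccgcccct
Birc3: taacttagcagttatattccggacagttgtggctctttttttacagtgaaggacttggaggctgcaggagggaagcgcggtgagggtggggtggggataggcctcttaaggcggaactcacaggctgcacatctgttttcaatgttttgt

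*Ltb* (chr17:35194357-35194506, plus strand) held 1 match, 87 to 78 bases upstream of its start site, which reads GGGACTTTCC on the opposite strand. *Nfkbia* (chr12:55492648-55492797, minus strand) held 1 match 29 to 20 bases upstream, GGAAATTCCC as printed. *Birc3* (chr9:7873171-7873320, minus strand) held no match, neither here nor in its whole window of 250 bases before and 50 after the start site. Of 32851 such windows in the RefSeq table, 2779 (8.46%) held a match. A window was present for 7 of the 10 genes, and 5 of these held a match in at least 1 window: *Ltb*, *Nfkbia*, *Nfkbie*, *Nfkb2* and *Tnfaip3*. As *Nfkb2* and *Tnfaip3* have more than 1 window, the share of windows is not a background for this count of genes. A match is a description of the letters and not evidence of binding.

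Levels were compared between genes per kilobase of exon, on the union of exons annotated on mm9. *Nfkb1* was the highest, at a mean of 111.8 CPM per kb over the 12 libraries (range 101.3 to 127.7). *Nfkbia* followed at 65.9 CPM per kb (38.0 to 87.7), *Birc3* at 22.7 (16.4 to 27.8) and *Ltb* at 4.85 (0.685 to 9.55). No neighbours in this order overlapped in range. *Rela*, which encodes the usual partner of the *Nfkb1* product, had 44.8 CPM per kb (37.1 to 51.4), and *Rel*, which encodes another subunit with a transactivation domain, had 4.66 (3.48 to 5.51). The range of *Rela* overlapped that of *Nfkbia*, and the range of *Rel* lay within that of *Ltb*.

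*Ltb* (NM_008518, chr17:35331384-35333265 on mm9, plus strand, exon union of 1516 bases) differed most between the groups. It had 4.04, 4.66 and 4.37 CPM in KO-con and 1.04, 1.56 and 1.55 CPM in KO. The Over-con libraries had 12.1, 10.2 and 14.5 CPM, and the Over libraries 11.03, 11.9 and 11.3 CPM. The KO libraries were the lowest of the 12, KO-con lay between, and both groups of the overexpression experiment lay above and overlapped each other. These levels rested on few reads, with 9, 18 and 17 counts in KO and 39, 52 and 36 in KO-con.

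*Tnf*, the founding ligand of its family, lies close to *Ltb* on chromosome 17 (chr17:35336326-35338952, minus strand). Its transcript NM_013693 had 4, 11 and 8 counts in KO-con, 4, 12 and 3 in KO, 5, 7 and 9 in Over-con, and 5, 7 and 0 in Over. All 4 groups overlapped. Its other listed transcript had 0 counts in every library.

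Among the subunits, *Nfkb1* (NM_008689, chr3:135247619-135354511, minus strand, exon union of 4794 bases) was the most deeply counted of the 10 genes. It had 525.0, 485.8 and 508.5 CPM in KO-con and 492.2, 532.9 and 494.7 CPM in KO. The Over-con libraries had 585.7, 558.3 and 612.0 CPM, and the Over libraries 532.3, 559.1 and 542.7 CPM. KO and KO-con overlapped, as did Over and Over-con, whereas all Over-con libraries lay above all KO-con libraries. *Nfkb2* (chr19:46379227-46386580, plus strand) had 34 counts over the 12 libraries, all on NM_019408 of 3 listed transcripts and at most 7 in a library. Its exons overlap those of *Psd* on the opposite strand. *Relb* (chr7:20191566-20214787, minus strand) had 2 counts in all.

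Among the inhibitors, *Nfkbia* (NM_010907, chr12:56590398-56593634, minus strand, exon union of 1577 bases) encodes I kappa B alpha, the inhibitor that NF-kappa B itself resynthesizes after activation. It had 120.0, 115.1 and 110.8 CPM in KO-con and 73.2, 79.9 and 60.0 CPM in KO. The Over-con libraries had 120.5, 131.0 and 138.3 CPM, and the Over libraries 97.0, 111.7 and 88.7 CPM. In both experiments the engineered line lay below its control without overlap, and the KO libraries were the lowest of the 12. *Tnfaip3*, a ubiquitin-editing enzyme that ends signalling (chr10:18720716-18735463, minus strand), had at most 7 counts in a library on NM_009397 and 38 in all, with 8 more on its other transcript. *Nfkbiz*, a nuclear member of the inhibitor family (chr16:55811488-55839012, minus strand), had 3 counts in all, and *Nfkbie*, I kappa B epsilon (chr17:45692665-45700118, plus strand), had 0 on both of its transcripts.

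*Birc3* (NM_007464, chr9:7848699-7873186, minus strand, exon union of 5009 bases) encodes an inhibitor-of-apoptosis protein with ubiquitin ligase activity that is both a target and a regulator of the pathway. It had 118.9, 115.0 and 114.0 CPM in KO-con and 88.4, 82.3 and 95.9 CPM in KO. The Over-con libraries had 139.3, 137.2 and 119.7 CPM, and the Over libraries 118.4, 119.0 and 117.2 CPM. The KO libraries were again the lowest of the 12, and the Over libraries lay just below the lowest Over-con library.

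**Figure D2:**
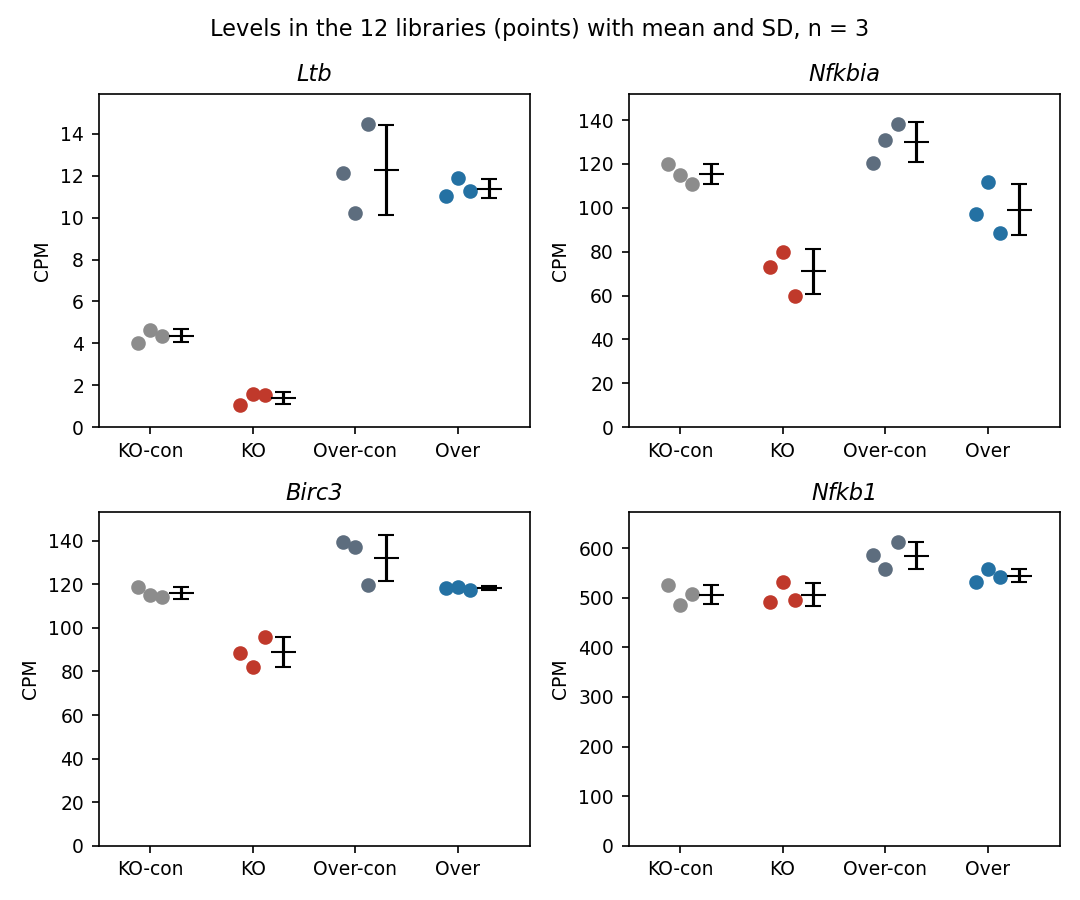
CPM of *Ltb*, *Nfkbia*, *Birc3* and *Nfkb1* in the 12 libraries (points, linear axes from 0), with the mean and SD of each group of 3 beside them. *Ltb*, *Nfkbia* and *Birc3* are lowest in the 3 KO libraries, whereas *Nfkb1* lies between 485.8 and 532.9 CPM in KO and KO-con alike.

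In the knockout, 3 of the 5 genes that passed the filter on low counts fell against KO-con at an adjusted p under 0.05 (edgeR's quasi-likelihood test, Benjamini-Hochberg adjustment over 9457 transcripts). Over all transcripts tested, 11.8% were called, 5.96% lower and 5.83% higher in KO. The 5 genes tested had a median log2 fold change of -0.38, and all tested transcripts had one of 0.01. *Ltb* fell by 1.62 on the log2 scale (SE 0.27, 95% CI -2.20 to -1.04, adjusted p = 0.00102), to 0.325 of its level in KO-con. It was the only one of the 5 whose change exceeded 2-fold, a threshold passed by 1.7% of all transcripts tested. *Nfkbia* fell by 0.69 (SE 0.095, 95% CI -0.89 to -0.49, adjusted p = 0.00019), which was a fall of 38.1%, and *Birc3* by 0.38 (SE 0.08, 95% CI -0.54 to -0.21, adjusted p = 0.00433), a fall of 23.0%. All 3 were lower in 3 of 3 KO libraries than in any KO-con library, a description without the share of all transcripts for which this held.

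The subunits behaved differently from one another. *Nfkb1* had a log2 fold change of 0.01 in KO, with a 95% CI of -0.14 to 0.15 (edgeR, adjusted p = 0.959), an interval that did not reach the change of *Nfkbia*. *Rela* had -0.09 (95% CI -0.31 to 0.14, adjusted p = 0.684), with means of 124.3 ± 18.3 CPM in KO-con and 116.4 ± 14.9 CPM in KO (SD, n = 3). *Rel*, itself a target of the pathway, fell from 14.97 ± 0.699 to 9.98 ± 0.226 CPM (SD, n = 3), by 0.575 on the log2 scale (SE 0.135, adjusted p = 0.0106). The adjusted p of *Rel* was 0.0504 without KO-con replicate 1, and against Over-con in place of KO-con the fall was 0.45 with an adjusted p of 0.108. *Tnf* was the fifth gene tested, and its log2 fold change of -0.37 had a 95% CI of -1.55 to 0.81 (adjusted p = 0.743), an interval that includes a 2-fold fall, so that a change of this size was not detectable at this depth.

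Markers of other cell types moved between the same groups. The summed level of 12 mast cell genes was 372.5 to 432.1 CPM in KO-con and 1150 to 1231 CPM in KO, nearly all of it from *Cpa3*, while *Tpsab1* and *Fcer1a* were listed at 0 in every library. The sum of 12 macrophage genes was 184.1 to 203.5 CPM in KO-con and 231.3 to 270.5 CPM in KO, mainly from *Fcgr1* and *Cd68*, with *C1qa*, *C1qb*, *Adgre1* and *Itgam* listed at 0 in every group. *Cd14* went the other way, with means of 6.552 CPM in KO-con and 4.595 CPM in KO. All 12 lymphocyte genes stayed under a mean of 0.5 CPM, and their sum did not exceed 0.927 CPM in any library. The fibroblast sums of 3009 to 3042 CPM in KO-con and 2977 to 3186 CPM in KO overlapped. They were mostly *Vim*, with means of 1932 CPM in KO-con and 2008 CPM in KO, so the overlap says little about the other markers. *Dcn* had means of 51.46 CPM in KO-con and 38.2 CPM in KO, and *Pdgfra* 4.997 and 2.569 CPM. *Thy1* went the other way, with 37.18 and 45.95 CPM. The part of these cell types in the levels of *Ltb*, *Nfkbia* and *Birc3* was not tested.

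In the overexpressing line, 1 of 4 genes tested, *Nfkbia*, fell against Over-con, beside 1.65% of 9401 transcripts called, 0.883% lower and 0.766% higher. *Nfkbia* fell by 0.38 on the log2 scale (SE 0.09, 95% CI -0.56 to -0.20, edgeR, adjusted p = 0.0365), a fall of 23.1% that was seen in 3 of 3 libraries. The call was close to the threshold. It was lost without Over-con replicate 1 (adjusted p = 0.0691), Over-con replicate 2 (0.0917), Over replicate 1 (0.201) or Over replicate 3 (0.224), in each case with the fall between 0.30 and 0.43. *Birc3* had a log2 fold change of -0.15 (95% CI -0.305 to 0.003, adjusted p = 0.398), which became -0.22 with an adjusted p of 0.0286 without Over-con replicate 3. *Ltb* had -0.12 (95% CI -0.43 to 0.19, adjusted p = 0.787) and *Nfkb1* -0.10 (95% CI -0.22 to 0.03, adjusted p = 0.531). *Rela* and *Rel* had -0.06 and -0.01. The mast cell sum was 648.5 to 669.5 CPM in Over and 761.6 to 865.4 CPM in Over-con, and the fibroblast sum was 2965 to 3099 CPM in Over and 3219 to 3461 CPM in Over-con. The mast cell sum was nearly all *Cpa3*, with means of 649.8 CPM in Over and 806.9 CPM in Over-con. *Hdc* went the other way, with 2.906 and 1.581 CPM, as did *Gata2* with 5.074 and 3.088 and *Cma1* with 0.6089 and 0.3498. *Mitf* had 1.132 and 1.348 CPM. The part of these cell types in the level of *Nfkbia* was not tested.

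Whether the changes in the lines differed was asked by the test of the difference. The KO effect minus the Over effect was tested in 1 fit of the 12 libraries, in which 8.64% of 9903 transcripts were called, and 1 of 4 genes tested passed. *Ltb* had a difference of -1.50 (SE 0.28, 95% CI -2.09 to -0.91, edgeR, adjusted p = 0.00175). *Nfkbia* had a difference of -0.31 (95% CI -0.60 to -0.025, adjusted p = 0.184), *Birc3* one of -0.23 (95% CI -0.44 to -0.01, adjusted p = 0.206) and *Nfkb1* one of 0.105 (95% CI -0.08 to 0.29, adjusted p = 0.533). The fall of *Nfkbia* in KO was thus not shown to differ from its fall in Over.

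The control groups gave a background for these changes, since neither carries a change of *Stella* by its label. Between KO-con and Over-con, 16.3% of 9321 transcripts were called, 8.19% lower and 8.08% higher in KO-con. *Ltb* was 1 of the 4 genes tested that passed. It was lower in KO-con by a log2 fold change of -1.50 (SE 0.19, 95% CI -1.89 to -1.11, edgeR, adjusted p = 7.31e-06), close in size to its change in KO. Against Over-con in place of KO-con, the log2 fold change of *Ltb* in KO was -3.13, and against KO-con in place of Over-con that in Over was 1.39 (adjusted p = 3.92e-07). The size of the *Ltb* change in KO and its direction in Over thus depended on the control. *Nfkb1* had a log2 fold change of -0.20 in KO-con against Over-con (95% CI -0.35 to -0.06, adjusted p = 0.0512), *Birc3* one of -0.18 (adjusted p = 0.146) and *Nfkbia* one of -0.165 (adjusted p = 0.179). The control groups did not overlap in any of these 3 genes. The share of all transcripts without overlap is not given here, so this is a description only. *Nfkb1* passed without Over-con replicate 2 (adjusted p = 0.0362) and *Birc3* without Over-con replicate 3 (adjusted p = 0.0135). The summed levels of 4 marker lists were also higher in Over-con than in KO-con without overlap. They were 218.3 to 240.9 CPM for the macrophage list, 761.6 to 865.4 CPM for the mast cell list, 3219 to 3461 CPM against 3009 to 3042 for the fibroblast list, and 152.7 to 167.1 CPM against 114.8 to 139.6 for the germ cell list. The germ cell sum was nearly all *Ifitm3*, with means of 155.0 CPM in Over-con and 120.7 CPM in KO-con. *Prdm1* went the other way, with 0.675 and 1.85 CPM. The mast cell sum was nearly all *Cpa3*, with 806.9 CPM in Over-con and 401.6 CPM in KO-con. *Cma1* went the other way, with 0.3498 and 1.123 CPM, and *Hdc*, *Gata2* and *Mitf* also had higher means in KO-con. *Vim*, the highest fibroblast marker, had means of 1822 CPM in Over-con and 1932 CPM in KO-con. The macrophage sum differed mainly through *Fcgr1*, with 190.5 and 158.2 CPM, while *Cd68* had 28.76 and 28.53 CPM. The part of these lists in the levels of *Ltb* was not tested.

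**Figure D3:**
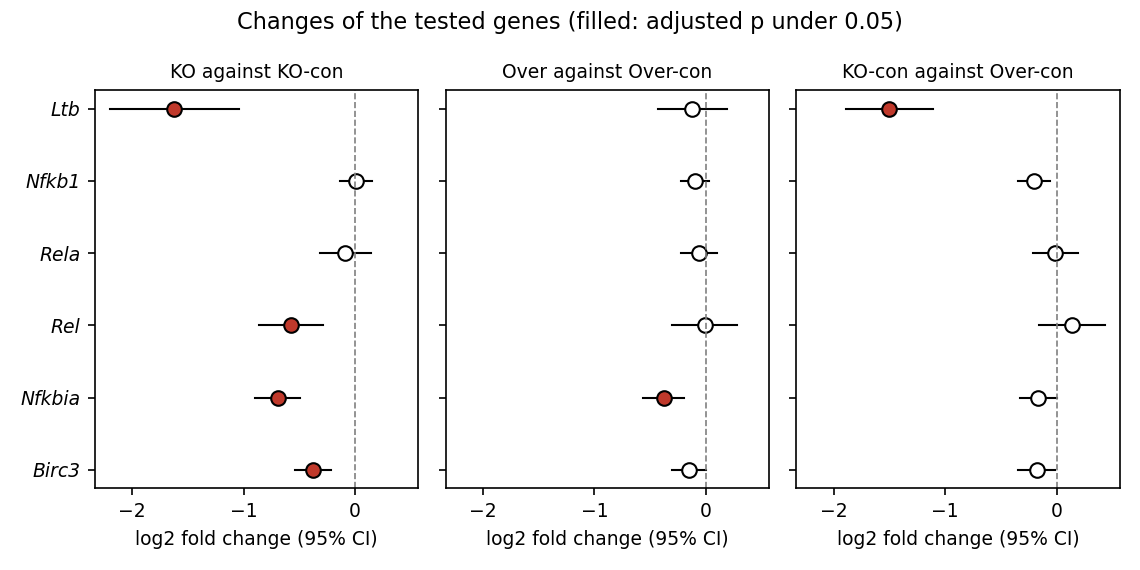
Log2 fold changes (points) with 95% confidence intervals (lines) of *Ltb*, *Nfkb1*, *Rela*, *Rel*, *Nfkbia* and *Birc3* in 3 comparisons, with filled points for an adjusted p under 0.05 in edgeR. *Ltb* stands at -1.62 in KO against KO-con and at -1.50 in KO-con against Over-con, and *Nfkbia* lies below 0 in both engineered lines.

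Other genes of the pathway were read from lists of 96 genes in 7 classes, of which 59 passed the filter in KO. The lists were chosen with earlier results of these data known, so the shares called cannot test whether the pathway changed. In KO, 13 of the 59 were called (22.0%, beside 11.8% of all transcripts), 5 higher and 8 lower, with a median log2 fold change of -0.105. The remaining subunits and inhibitors gave *Rel* and *Bcl3*, a nuclear inhibitor family member that fell by 0.75 (edgeR, adjusted p = 0.000184), from 43.2 ± 0.617 to 25.5 ± 2.78 CPM (SD, n = 3). Of the ligands and receptors, *Tnfsf11*, which encodes RANK ligand, fell by 1.79 (adjusted p = 0.000996), and *Tlr4*, the receptor for bacterial lipopolysaccharide, rose by 0.45 (adjusted p = 0.00248). Of 12 adaptors and ubiquitin enzymes tested, *Traf5* rose by 0.99 (adjusted p = 0.00129). *Traf5* and *Tlr4* did not pass against Over-con in place of KO-con (adjusted p = 0.104 and 0.0535).

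Among 31 other targets, 23 passed the filter and 8 were called in KO, 3 higher and 5 lower, so that targets did not move one way. The chemokine *Cxcl10* fell by 1.87 (edgeR, adjusted p = 8.35e-06), from 22.5 ± 5.96 to 6.10 ± 0.431 CPM (SD, n = 3), and the AP-1 subunit *Junb* fell by 0.65 (adjusted p = 6.73e-05). *Ptgs2*, the inducible cyclooxygenase, rose by 0.81 (adjusted p = 8.14e-05), and *Plau*, the urokinase plasminogen activator, rose by 0.70 (adjusted p = 0.000402). *Cxcl10* had 7.31 ± 1.63 CPM in Over-con, close to KO, and its fall against that control was 0.23 with an adjusted p of 0.622.

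In Over, 5 of 59 pathway genes were called (8.48%, beside 1.65%), each lower and each a target. The chemokines *Ccl2* and *Cxcl1* fell by 0.835 (edgeR, adjusted p = 8.05e-06) and 0.74 (adjusted p = 0.00125). The adhesion molecule *Vcam1*, *Ptgs2* and the immediate early gene *Egr1* fell by 0.40, 0.44 and 0.465 (adjusted p = 0.017, 0.0351 and 0.04). Without Over-con replicate 3, 10 pathway genes were called, and without Over-con replicate 1 or 2 or Over replicate 1 or 3, 2 were, *Ccl2* and *Cxcl1*, so the count depended on single libraries. Against KO-con in place of Over-con, *Vcam1* and *Egr1* were higher in Over, by 0.17 and 0.39, and *Ptgs2* had a log2 fold change of -0.09 (adjusted p = 0.504).

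Between the controls, 14 of 56 pathway genes differed (25.0%, beside 16.3%), 3 higher and 11 lower in KO-con. *Egr1*, *Ccl2* and *Vcam1* were lower in KO-con by log2 fold changes of -0.85, -0.61 and -0.56 (edgeR, adjusted p = 3.3e-06, 2.94e-05 and 0.000132), as were the interleukin-33 receptor *Il1rl1* with -0.67 and *Nos2* with -1.34. *Cxcl10* was higher by 1.66, *Map3k8*, a kinase of the pathway, by 0.97 and the adhesion molecule *Icam1* by 0.57. *Il1rl1*, *Nos2* and *Map3k8* have several listed transcripts, of which the most counted was used. The difference between the KO and Over effects was called for 11 of 59 pathway genes (18.6%, beside 8.64%), 5 higher and 6 lower. *Ptgs2*, which was higher in KO and lower in Over than in the control of each, had the lowest adjusted p of these, with a difference of 1.25 (SE 0.15, adjusted p = 1.37e-05). The controls themselves differed in *Ptgs2*, which was lower in KO-con by a log2 fold change of -0.35 (edgeR, adjusted p = 0.0269).

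**Figure D4:**
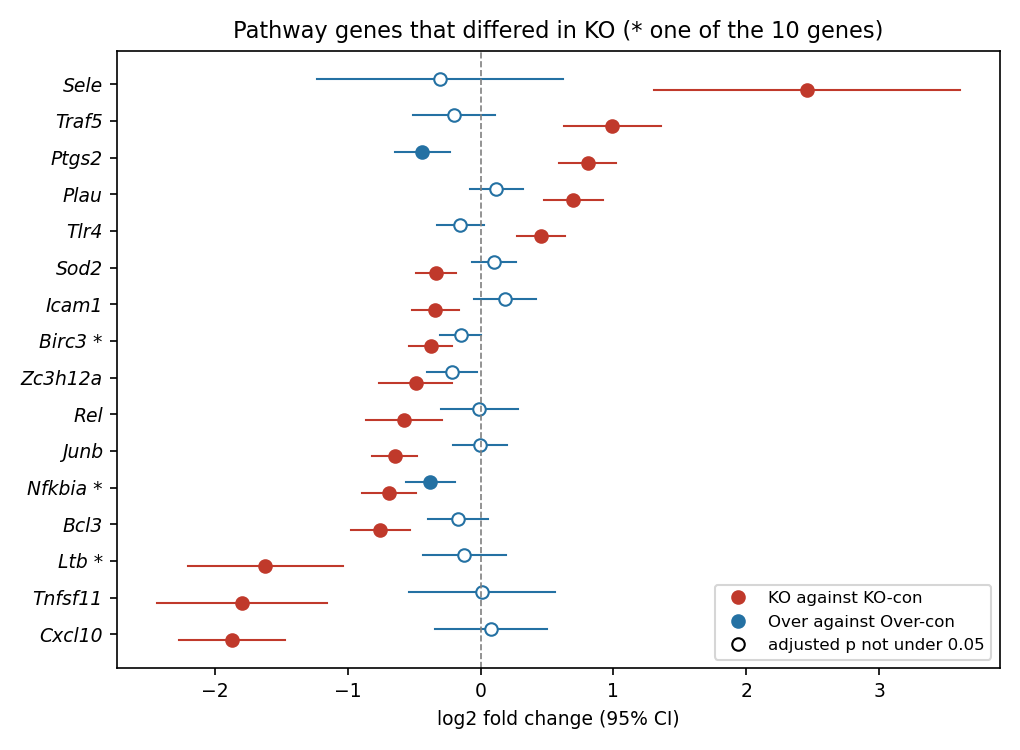
Log2 fold changes (points) with 95% confidence intervals (lines) in KO against KO-con (red) and Over against Over-con (blue) for the pathway genes called in KO, with open points where the adjusted p was not under 0.05. *Ltb*, *Nfkbia* and *Birc3* (starred) fell in KO beside *Cxcl10*, *Tnfsf11* and *Bcl3*, while *Ptgs2*, *Plau*, *Traf5* and *Tlr4* rose.

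The transcripts whose pattern over the 12 libraries was most like that of each gene were sought among 9903 transcripts by Pearson's r of log2 CPM, as a description, since the libraries share 4 groups. *Nfkb1* was followed by *Socs5* (r = 0.927) and *Smpd1* (r = 0.925), both highest in Over-con. *Nfkbia* was followed by *Spib* (r = 0.932) and *Sdk2* (r = 0.931), and *Birc3* by *Tmem64* (r = 0.958) and *Samsn1* (r = 0.955), all lowest in KO. *Spib*, a transcription factor of the Ets family, had mean levels of 10.3 CPM in KO-con, 4.70 in KO, 13.0 in Over-con and 8.42 in Over. *Ltb* lay under the mean of 10 CPM set for this search.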

How the data were processed

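RNA-seq was measured in 12 libraries of mouse FGSCs, grouped and numbered by the sample titles. Per the study's methods, reads were trimmed and mapped on mm9 by HISAT2, and the authors deposited raw counts per RefSeq transcript. The strand setting, the annotation release and the treatment of reads shared between transcripts are not given in the sources used here, and the library kit was stranded. Symbols (for 41181 of 41388 transcripts) were looked up in RefSeq on GRCm38.p6, and positions and exon lengths from the mm9 annotation. The 10 genes and all lists were chosen with earlier results of these data known.

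Transcripts were tested as listed with edgeR 4.0.16 (TMM, filterByExpr, glmQLFit and glmQLFTest) on the 6 libraries compared, or all 12 for the difference between effects. Calls had an adjusted p under 0.05. The biological coefficient of variation was 0.0735 to 0.0819, and the chi-square per degree of freedom between libraries of a group 2.02 to 14.0, so no libraries were counted as 1. Where a gene has several transcripts, the one with the most counts carries its name. Named are all 10 genes, *Dppa3*, *Rela*, *Rel*, at most 8 called pathway genes per comparison with the lowest adjusted p, and 2 similar transcripts per gene at or over 10 CPM. Alternatives were DESeq2 1.42.0, its size factors, other filters (none, or 10 counts in every library), counts summed per gene, a 2-fold threshold, the replicate block, 12 libraries in 1 fit, the other control and leaving out each library. The tests were checked on simulated data. Figures were drawn with matplotlib 3.10.9.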

Additional observations from a re-analysis of the deposited data

Results flagged for a closer look

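The change in KO differed from the change in Over, by the test of the difference itself (edgeR, 12 libraries in 1 fit), for 1 of 4 genes tested. It did so for 11 of 59 pathway genes, beside 8.64% of all transcripts tested. By the rule for naming, 10 of the 11 are described here. The other, *Sele* (2.77, adjusted p = 0.0238), was not called with DESeq2. *Ltb* had a difference of -1.50 on the log2 scale (adjusted p = 0.00175), with -1.62 in KO and -0.12 in Over. *Cxcl10* (-1.95, adjusted p = 0.000186), *Tnfsf11* (-1.80, adjusted p = 0.0067), *Junb* (-0.64, adjusted p = 0.00425), *Bcl3* (-0.59, adjusted p = 0.0201), *Icam1* (-0.52, adjusted p = 0.0265) and *Sod2* (-0.435, adjusted p = 0.0178) had the same sign. *Ptgs2* (1.25, adjusted p = 1.37e-05), *Traf5* (1.19, adjusted p = 0.00274), *Tlr4* (0.61, adjusted p = 0.00466) and *Plau* (0.58, adjusted p = 0.0194) had the opposite sign. *Sod2* did not pass without KO-con replicate 1, Over-con replicate 1 or Over replicate 2 (adjusted p = 0.0509, 0.0573 and 0.0591), nor *Plau* without KO-con replicate 1 or 2 or Over replicate 2 or 3 (adjusted p = 0.0565, 0.0727, 0.05 and 0.0576). *Bcl3* did not pass without Over replicate 2 (adjusted p = 0.0564), nor *Icam1* without KO-con replicate 1 or 3, Over-con replicate 1 or 2 or Over replicate 2 (adjusted p = 0.0772, 0.0535, 0.0824, 0.0624 and 0.0772). The difference rests on both control groups, in which *Ltb* (-1.50), *Cxcl10* (1.66), *Icam1* (0.57) and *Ptgs2* (-0.35) themselves differed. Groups of 3 were too small for the search for single outlying libraries.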

How the results depend on the processing

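Calls of *Ltb*, *Nfkbia* and *Birc3* in KO held at an adjusted p under 0.05 in every alternative that could test them, with log2 fold changes of -3.13 to -1.47, -0.87 to -0.59 and -0.57 to -0.325. *Ltb* could not be tested in KO or in the difference under 10 counts in every library. With a 2-fold threshold, 1 of 5 genes tested was called in KO, beside 1.7% of all transcripts, and 0 of 4 in Over. Of the pathway genes, 3 of 59 were called in KO, 0 of 59 in Over, 2 of 56 in the controls and 5 of 59 in the difference. The share of all transcripts at this threshold is given for KO only.

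Pairing by replicate number was checked on each library's deviations from its group mean in log2 CPM, correlated over transcripts. Between same-numbered libraries these deviations correlated at -0.0922, -0.061 and -0.0487 for KO and KO-con. They correlated at -0.009, -0.0308 and -0.152 for Over and Over-con, and at -0.00643, 0.0568 and -0.00568 for the controls. By this measure, 0 of 6, 0 of 6 and 2 of 6 libraries correlated best with their own number. The replicate numbers thus did not pair the libraries. With the replicate block, 0 of 4 genes tested were called in Over (edgeR, 1 at an unadjusted p under 0.05, DESeq2 without the block 1). In the same setting, 3 of 59 pathway genes were called in Over, and 2 of 4 genes tested in the controls. With all 12 libraries in 1 fit, 0 of 4 (2 at an unadjusted p under 0.05) and 3 of 59 pathway genes were called in Over, and 2 of 4 in the controls. DESeq2, 10 counts in every library and counts summed per gene also gave 2 of 4 in the controls, *Nfkb1* joining *Ltb*. With 10 counts in every library, 0 of 3 genes tested differed between effects (2 at an unadjusted p under 0.05), since *Ltb* was not among them. Against the other control, 2 of 4 genes tested and 12 of 57 pathway genes were called in Over. Leaving out each library gave 0 to 2 of 4 and 2 to 10 pathway genes in Over. It gave 1 to 2 of 4 in the controls, and 6 to 13 pathway genes in the difference. The share of all transcripts called in each of these alternatives is not given here. The counts are therefore descriptions, without a background to set them against.

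Directions turned against the other control for *Nfkb1* in KO (-0.21), and in Over for *Ltb* (1.39), *Nfkb1* (0.11), *Birc3* (0.032), *Vcam1* (0.17) and *Egr1* (0.39). *Rel* in Over was 0.007 without a filter. Without single libraries, directions of values near 0 turned for *Nfkb1* in KO (-0.031 to 0.031), *Ltb* in Over (-0.21 to 0.018), *Rela* in all comparisons (-0.196 to 0.007 in KO, -0.109 to 0.016 in Over, -0.10 to 0.101 between the controls and -0.139 to 0.062 in the difference) and *Rel* in Over (-0.115 to 0.063). The causes were not tested. Depth limits the precision of *Ltb*, with 9 to 18 counts in KO.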
